A study of Mus musculus with 6 samples.

Results

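The 31 genes described here encode the proteins of embryonic heart muscle and the transcription factors that direct heart formation. They were chosen by name as a list of cardiac genes, and all 31 were found by symbol among the 23366 genes of the deposited count tables and passed the filter on low counts. The tables come from polyadenylated RNA of 6 whole mouse embryos at stage E10.5, in mid-gestation. The 3 control embryos carried a wild-type and a floxed allele of each of H3f3a and H3f3b, the genes for histone variant H3.3. The 3 knockout embryos had, in place of the wild-type alleles, null ones beside the floxed. Both groups carried the Sox2-Cre transgene, a recombinase active in the epiblast and so in all tissues of the embryo proper, and both lacked Trp53. Their strain was a mix of C57BL/6, CD1 and 129. Since the controls carried Cre too, their floxed alleles were open to deletion as well, and every comparison below was made in embryos without p53. Nothing in the labels says that the embryos were littermates, and the spread that the p-values measure is that among these 6 embryos, some of which may share a litter.

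At this stage the heart is a looped, beating tube in which atrial and ventricular chambers are ballooning out and the ventricular wall forms trabeculae. Nkx2-5, Gata4, Tbx5, Hand1, Mef2c and related factors switch on the genes of the contractile apparatus, and Tbx2 and Tbx3 hold back the chamber programme in the canal between the chambers. Nppa, which encodes atrial natriuretic peptide, is a classic marker of working chamber muscle in the embryo, and in the adult heart Nppa and Nppb are induced by wall stretch and low oxygen. Several of the listed genes are also used outside the heart. Myl4, Myl3, Tnnt2, Tnni1 and Myh7 are made in skeletal muscle, Tbx2, Tbx3 and Tbx5 in limb buds, Gata4 and Gata6 in endoderm, and Mef2c in muscle, vessels and neural crest. RNA of whole embryos cannot tell apart fewer cells of a type from less RNA per cell.

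The genotype was visible in the targeted genes. For H3f3a, 9851, 10775 and 9685 counts were found in control embryos, as against 1818, 1744 and 1996 in knockout embryos (edgeR adjusted p = 1.5e-06). H3f3b fell as well (log2 fold change -0.60, edgeR adjusted p = 0.0257). Libraries held 24952853 to 30461689 counts in genes. The share of alignments outside genes was 18.3% and 18.0% in knockouts 1 and 3, against 10.6% in knockout 2 and 9.79% to 13.1% in the controls.

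The 4 sequences below are the 250 bases upstream of the transcription start of Nppa, Nppb, Bmp10 and Myl7. The first 3 are the members with the largest fold changes. Myl7, a gene grouped here as atrial, has a fold near 1 and was added so that regulatory letters can be compared. They are RefSeq promoters on GRCm38.p6, matched by symbol, while the counts were made on mm9. Capitals mark matches to any of the searched motifs on either strand. For GATA factors the motif was AGATAA. For NK2 factors such as Nkx2-5 it was AAGTG, and for T-box factors it was AGGTGT. The MCAT element bound by TEAD factors was searched as CATTCC and the TATA box as TATAAA. The CArG box of serum response factor and the MEF2 motif were searched as well, and MEF2 had no match in these 4 windows.
Nppa: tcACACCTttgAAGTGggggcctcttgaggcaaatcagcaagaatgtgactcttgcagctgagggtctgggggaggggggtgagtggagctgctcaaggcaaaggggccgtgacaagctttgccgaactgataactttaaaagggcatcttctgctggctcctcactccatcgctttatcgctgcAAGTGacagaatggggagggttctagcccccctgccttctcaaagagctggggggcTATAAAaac
Nppb: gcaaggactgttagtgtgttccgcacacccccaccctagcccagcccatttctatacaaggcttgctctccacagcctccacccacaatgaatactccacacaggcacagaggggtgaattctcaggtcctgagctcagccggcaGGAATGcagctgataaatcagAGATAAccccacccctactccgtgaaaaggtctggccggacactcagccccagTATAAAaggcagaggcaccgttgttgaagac
Bmp10: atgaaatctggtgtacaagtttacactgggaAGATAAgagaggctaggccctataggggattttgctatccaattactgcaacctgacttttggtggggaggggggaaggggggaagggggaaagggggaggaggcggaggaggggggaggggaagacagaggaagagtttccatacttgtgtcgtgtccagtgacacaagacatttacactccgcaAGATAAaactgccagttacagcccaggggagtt
Myl7: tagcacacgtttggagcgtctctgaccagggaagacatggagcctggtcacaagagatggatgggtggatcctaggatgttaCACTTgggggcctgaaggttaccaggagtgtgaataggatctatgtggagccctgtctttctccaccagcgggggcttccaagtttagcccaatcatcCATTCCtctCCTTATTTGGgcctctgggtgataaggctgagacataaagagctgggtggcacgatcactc

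These windows lie at chr4:148000472-148000721, chr4:147985650-147985899 and chr6:87428744-87428993 on the plus strand and chr11:5898783-5899032 on the minus strand. In Nppa a T-box match 248 to 243 bases before the start stands next to an NK2 match at 239 to 235. A further NK2 match lies at 65 to 61 and a TATA match at 9 to 4. Nppb has an MCAT match at 105 to 100, a GATA match at 84 to 79 and a TATA match at 31 to 26. Bmp10 has 2 GATA matches, at 219 to 214 and 33 to 28. Myl7 has an NK2 match, an MCAT match and, at 61 to 52, the CArG box. RefSeq promoters were matched for 24 of the 31 members, the others being Gata4, Gata6, Tbx2, Tbx3, Tbx5, Hand1 and Myocd. These 24 genes had 31 windows, since some have several starts. Of the 31 windows, 16 held an NK2 match, 5 a GATA match, 7 a T-box match, 7 an MCAT match, 7 a TATA match, 2 a CArG box and 2 a MEF2 motif. Among all 32851 promoter windows of this length the shares were 40.7% for NK2, 9.99% for GATA, 11.8% for T-box, 12.6% for MCAT, 12.4% for TATA, 1.47% for the CArG box and 2.92% for MEF2. A match describes the letters only and is not a measured binding site.

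Across the 31 members a single gene, Nppa, was called as higher in the knockouts and none as lower. A call is a Benjamini-Hochberg adjusted p under 0.05 over all 15075 tested genes in edgeR's quasi-likelihood test. Of all tested genes 0.551% were called as higher, 0.955% as lower and 1.51% in either direction. The median log2 fold change of the members was 0.20, beside -0.0010 over all tested genes, and 18 of 31 folds were above 0, as were 49.7% of all folds. At an unadjusted p under 0.05 there were 11 members of 31, beside 19.2% of all genes. In 13 members every knockout lay above every control, which 11.8% of all tested genes also showed. In 1 member, Mef2c, every knockout lay below every control, as in 12.3% of all genes. The median depended on scaling, from 0.19 to 0.25 under other scalings by edgeR, and was 0.10 when libraries were scaled to the 13 sarcomere members themselves.

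**Figure D1:**
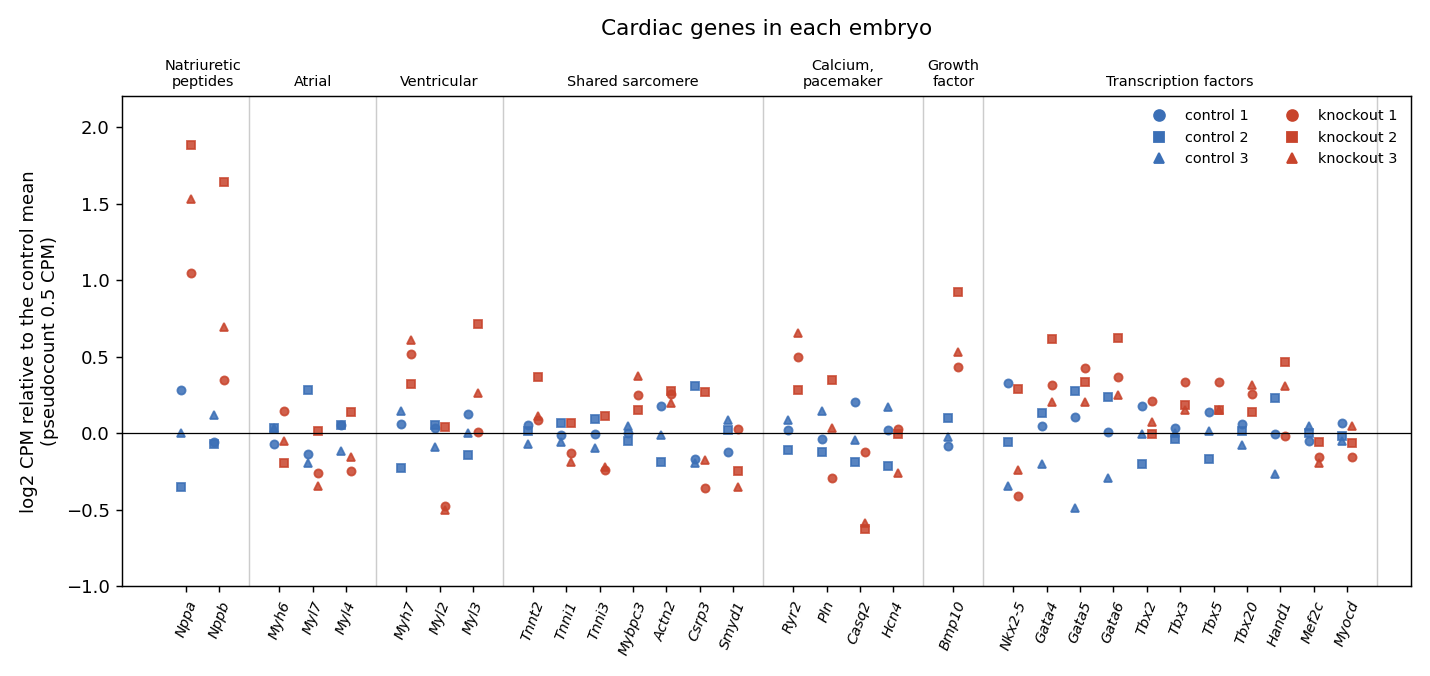
Level of each of the 31 cardiac genes in each embryo, as log2 CPM relative to the mean of the 3 controls, with genes grouped by role along the horizontal axis, controls in blue and knockouts in red. Nppa stands furthest from 0 in all 3 knockouts, and the atrial genes and most transcription factors lie close to 0 in both groups.

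The natriuretic peptides had the largest folds of the list. Levels are given in CPM, the depth-normalised count with library sizes scaled by TMM. Nppa had 16.5, 10.4 and 13.5 CPM in controls 1, 2 and 3, and 28.3, 51.0 and 39.8 CPM in knockouts 1, 2 and 3. The lowest knockout was thus above the highest control, and knockout 2 was the highest of the 6. Nppa rose from 13.5 ± 3.03 to 39.7 ± 11.3 CPM (SD, n = 3), 2.95-fold (log2 fold change 1.56 ± 0.23 SE, edgeR adjusted p = 0.0138). The call was lost without control 2 (edgeR adjusted p = 0.0804) or control 3 (0.0763) and was not made with the replicate number as a block (0.0947), while the log2 fold change stayed between 1.34 and 1.76 over the 6 fits that each leave out a library.

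Nppb, the gene of B-type natriuretic peptide, is far less abundant in these embryos. Its counts were 54, 54 and 61 in control embryos and 68, 193 and 101 in knockout embryos, or 1.85, 1.84 and 2.16 CPM against 2.62, 7.13 and 3.47 CPM. The groups did not overlap, and knockout 2 was again the highest. The log2 fold change was 1.18 ± 0.35 (SE), which was not called by edgeR (adjusted p = 0.132). It was 0.64 without knockout 2 (edgeR adjusted p = 0.0842), and DESeq2 called it (adjusted p = 0.0273, where DESeq2 called 5.17% of all genes).

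Bmp10 is a growth factor made by trabecular heart muscle and needed for trabecular growth. It gave few counts, 27, 33 and 28 in control embryos against 40, 64 and 49 in knockout embryos. In CPM this was 0.926, 1.12 and 0.99 against 1.54, 2.36 and 1.68, so the groups were apart and knockout 2 was once more the highest. Its log2 fold change was 0.88 ± 0.25 (SE), and the edgeR adjusted p of 0.129 did not reach the threshold.

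**Figure D2:**
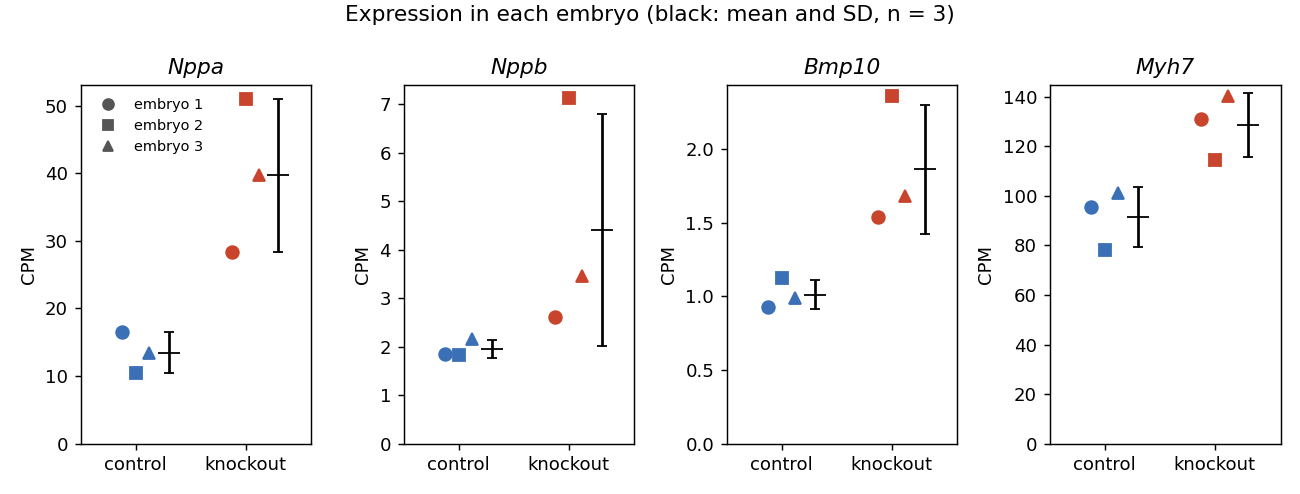
CPM of Nppa, Nppb, Bmp10 and Myh7 in each embryo on linear axes from 0, with the mean and SD of each group of 3 in black. In all 4 genes the knockouts lie above the controls. Knockout 2 is the highest for Nppa, Nppb and Bmp10 and the lowest knockout for Myh7.

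Among the knockouts, knockout 2 was the highest for 18 of the 31 members, knockout 1 for 8 and knockout 3 for 5. Nppa, Nppb and Bmp10 were highest in knockout 2 and lowest in knockout 1. The median and the sum of a list of low-oxygen response genes had this order too. In this list of 12 genes, all 12 folds were above 0 and Vegfa, the vascular growth factor gene, was called as higher (1.51 ± 0.19 SE, edgeR adjusted p = 0.00699). Vegfa itself had 84.9, 128 and 131 CPM in knockouts 1, 2 and 3, so it was highest in knockout 3. The median log2 level of that list against the control mean was 0.27, 1.71 and 0.76 in knockouts 1, 2 and 3, and the summed level was 1182 to 1453 CPM in controls and 1456 to 3860 CPM in knockouts. This order was not particular to that list. A list of 8 endothelial genes had it, with medians of 0.05, 0.54 and 0.18 in knockouts 1, 2 and 3. All tested genes with transcripts up to 2 kb had it as well, with medians of -0.117, 0.016 and -0.106. The share of alignments outside genes ran the other way, at 18.3%, 10.6% and 18.0%. Not every list had it, as the summed erythroid level was lowest in knockout 2. The part of any of these in the levels of the natriuretic peptides was not tested.

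Nppb and Nppa are neighbours on mouse chromosome 4 in the RefSeq annotation, with no other tested gene between them. Nearby tested genes, chosen by position after the values of the pair were known, gave smaller folds. On the Nppb side, 2510039O18Rik, Plod1 and Mfn2 had log2 fold changes of -0.05, 0.33 and 0.16. On the Nppa side, Clcn6, a chloride transporter gene, had 0.45 ± 0.15 (SE), and Agtrap had 0.09. None of these was called by edgeR, and the lowest adjusted p among them was 0.161 for Clcn6.

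Receptors and processing enzymes of natriuretic peptides gave no calls among 8 tested genes. Npr1, the receptor that makes cyclic GMP in response to the products of Nppa and Nppb, had 10.2, 9.05 and 9.33 CPM in controls and 12.3, 13.9 and 15.1 CPM in knockouts. The groups did not overlap, and the log2 fold change was 0.53 ± 0.12 SE (edgeR adjusted p = 0.0752). Corin, the protease that cuts the precursor made from Nppa, had a log2 fold change of -0.30 ± 0.10, with 14.6 to 15.7 CPM in controls and 11.98 to 12.9 CPM in knockouts (edgeR adjusted p = 0.168). Npr2 was at 0.52 and the neprilysin gene Mme at -0.19, while the clearance receptor gene Npr3 was at -0.0011 ± 0.09 with the groups overlapping.

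Sarcomere genes grouped here as atrial had folds near 1. For these and for the ventricular group below, RNA of whole embryos does not show in which chamber the genes were expressed. Myh6, the alpha myosin heavy chain, had 82.4, 88.4 and 88.8 CPM in controls and 95.8, 75.5 and 83.6 CPM in knockouts, so that the controls lay inside the range of the knockouts. Its log2 fold change was -0.03 ± 0.09 (SE), with an edgeR adjusted p of 0.902. Myl7, the atrial regulatory light chain, had 32.6, 43.7 and 31.2 CPM in controls and 29.9, 36.2 and 28.1 CPM in knockouts, at -0.19 ± 0.15. Myl4, the atrial essential light chain, averaged 52.6 ± 3.47 CPM in control and 49.7 ± 7.16 CPM in knockout embryos (SD, n = 3), at -0.08 ± 0.11. The groups overlapped in all 3, and none was called by edgeR.

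Ventricular sarcomere genes gave folds on both sides of 1. Myh7, the beta myosin heavy chain that predominates in the embryonic ventricle, had 95.6, 78.1 and 101 CPM in controls and 131, 115 and 140 CPM in knockouts. Every knockout was above every control, for 0.49 ± 0.11 (log2, SE; edgeR adjusted p = 0.0752). Myh7 is 1 of the members that other fits called, by DESeq2 for example (adjusted p = 0.0049). Myl2, the ventricular regulatory light chain, had 52.4, 53.02 and 48.1 CPM in controls and 36.6, 52.7 and 36.0 CPM in knockouts. Knockout 2 lay inside the control range and the other knockouts below it, which gave -0.29 ± 0.14 (edgeR adjusted p = 0.293). Myl3, the ventricular essential light chain, had 22.0, 18.1 and 20.1 CPM against 20.2, 33.3 and 24.2 CPM, at 0.37 ± 0.17 (edgeR adjusted p = 0.276). Knockout 2 was the highest for Myl3, and knockout 1 lay inside the control range.

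Sarcomere genes used by all chambers varied little. Tnnt2, cardiac troponin T, had 38.4 to 42.02 CPM in controls and 42.8 to 52.2 CPM in knockouts, at 0.20 ± 0.10 (SE). Mybpc3, cardiac myosin binding protein C, had 29.1 to 31.1 CPM in controls and 33.5 to 39.2 CPM in knockouts, at 0.26 ± 0.09. Actn2, the alpha actinin of the Z disc, had 16.4 to 21.2 and 21.5 to 22.7 CPM, at 0.25 ± 0.11. These 3 had the groups apart, with edgeR adjusted p-values of 0.164 for Mybpc3 to 0.299 for Tnnt2. The groups overlapped in the slow and cardiac troponin I genes Tnni1 (-0.08 ± 0.10) and Tnni3 (-0.11 ± 0.15), in Csrp3, a Z disc LIM protein gene (-0.07 ± 0.21), and in Smyd1, a muscle methyltransferase gene needed for myofibril assembly (-0.19 ± 0.12). Summed over the 13 sarcomere members the level was 494.6 ± 2.90 CPM in controls and 529.6 ± 15.1 CPM in knockouts (SD, n = 3). This was a ratio of 1.07, and every knockout lay above every control.

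Ratios within a library set the genes against each other without a scaling factor. Nppa gave 33.2, 21.1 and 27.4 counts per 1000 counts of the 13 sarcomere members in controls, and 54.4, 93.2 and 76.4 in knockouts, 2.74-fold more on the means. Myh7 made up 53.7%, 46.9% and 53.3% of the Myh6 and Myh7 counts in controls and 57.8%, 60.3% and 62.6% in knockouts. Both ratios had the groups apart. In a two-sided exact permutation test this gives p = 0.1, the smallest that 3 against 3 embryos allow. Adjusted over the 7 quantities compared it is 0.14. Nppb and Bmp10 per 1000 sarcomere counts and the summed sarcomere level were apart too, higher in knockouts, with the same p. Myl2 as a share of Myl2 and Myl7 overlapped between the groups, at 59.0% ± 3.70 in controls and 56.8% ± 2.17 in knockouts (SD, n = 3, exact permutation p = 0.4). Tnni1 as a share of Tnni1 and Tnni3, a ratio that falls as the heart matures, was 81.9% ± 0.396 and 82.3% ± 0.92 (exact permutation p = 0.6). Myh6 and Myh7 are closely similar neighbouring genes, and reads that align to both were not counted, so the split between them rests on the reads that tell them apart. With libraries scaled to the 13 sarcomere members, Nppa was called by edgeR as well (1.46, adjusted p = 0.0166).

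**Figure D3:**
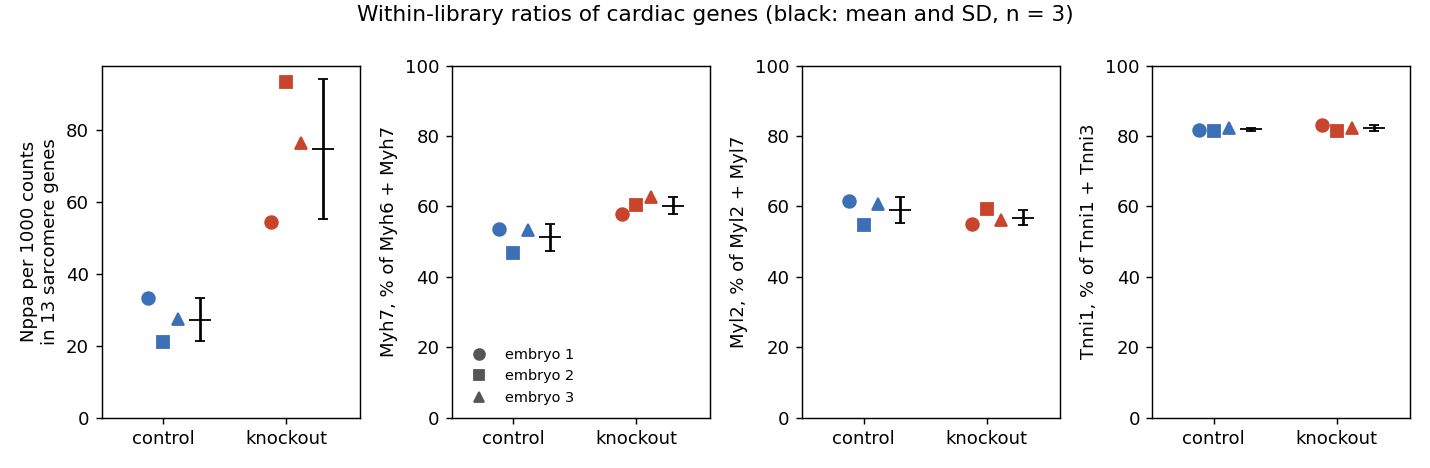
Within-library ratios in each embryo on linear axes from 0, with Nppa per 1000 counts of the 13 sarcomere genes, and Myh7, Myl2 and Tnni1 as a percentage of the named gene pairs, and the mean and SD of each group of 3 in black. The groups are apart for Nppa and Myh7 and overlap for Myl2 and Tnni1.

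Per kilobase of transcript, the most abundant members in controls were 3 light chains. Myl7 had 60.8 CPM per kb, Myl2 57.6 and Myl4 55.7, and the ranges of these 3 over the controls overlapped. Tnnt2 followed at 33.7, Tnni1 at 28.4 and Myl3 at 21.4 CPM per kb, with Nppa at 15.6, Myh7 at 14.7 and Myh6 at 14.2. In knockouts Nppa stood at 45.9 CPM per kb, from 32.7 to 59.0, a range that overlapped those of Myl7, Myl4, Myl2, Tnnt2 and Myl3. Among the transcription factors Mef2c had the highest level per length in controls, 18.7 CPM per kb, against 1.39 for Nkx2-5 and 0.819 for Myocd.

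Calcium handling and pacemaker genes gave no calls. Ryr2, the calcium release channel of the sarcoplasmic reticulum, had 12.8, 11.6 and 13.4 CPM in controls and 18.0, 15.4 and 20.1 CPM in knockouts. The groups were apart, for 0.50 ± 0.12 (log2, SE; edgeR adjusted p = 0.0907). Casq2, which binds calcium inside the reticulum, had the lowest fold of the list, at -0.48 ± 0.21, with 5.66, 4.18 and 4.67 CPM in controls against 4.39, 2.95 and 3.05 CPM in knockouts. Knockout 1 lay within the control range, and the edgeR adjusted p was 0.248. Pln, the inhibitor of the calcium pump, was at 0.06 ± 0.18, and Hcn4, the pacemaker channel gene, at -0.08 ± 0.16, with overlapping groups.

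Of the 11 transcription factors none was called by edgeR, 8 had folds above 0 and their median log2 fold change was 0.23. Gata4, a zinc finger factor needed for heart tube formation, had 15.1, 16.0 and 12.7 CPM in controls and 18.3, 22.6 and 16.9 CPM in knockouts, at 0.40 ± 0.14 (SE). Gata6, its close relative, had 21.4, 25.1 and 17.2 CPM against 27.5, 32.9 and 25.3 CPM, at 0.43 ± 0.15. Knockout 2 was the highest of the 6 embryos for both. Gata5, at 5.82 ± 1.63 and 7.40 ± 0.61 CPM (SD, n = 3), had overlapping groups.

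The T-box genes had folds above 0 in all 4 cases. Tbx3 had 53.2, 50.3 and 51.9 CPM in controls and 65.5, 58.8 and 57.6 CPM in knockouts, at 0.23 ± 0.08 (SE). Tbx20, needed for chamber growth, had 27.8, 26.9 and 25.3 CPM against 31.9, 29.4 and 33.3 CPM, at 0.24 ± 0.09. Tbx5, the gene mutated in Holt-Oram syndrome, was at 0.22 ± 0.11, and the groups were apart for these 3. Tbx2 had overlapping groups, at 0.10 ± 0.11. When libraries were scaled to the sarcomere members, the T-box folds stayed above 0 but that of Tbx2 was 0.0012.

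The remaining factors were close between the groups. Nkx2-5, the homeobox factor of the heart field, had 81, 59 and 44 counts in controls and 38, 73 and 50 in knockouts, at -0.11 ± 0.30 (SE). Mef2c had 46.6, 48.4 and 50.0 CPM in controls and 43.3, 46.6 and 42.2 CPM in knockouts, which was -0.14 ± 0.08 with the groups barely apart. Hand1, a basic helix-loop-helix factor of the left ventricle and lateral mesoderm, was at 0.27 ± 0.17, and Myocd, the coactivator of serum response factor, at -0.06 ± 0.16. Over the 11 factors the edgeR adjusted p ran from 0.173 for Gata4 to 0.868 for Nkx2-5.

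The set of called members was larger when knockout 2 was left out. Without it edgeR called 5 members, with Nppa (1.34, adjusted p = 0.00467), Myh7 (0.57, 0.0082), Ryr2 (0.60, 0.0103) and Mybpc3 (0.31, 0.0457) as higher and Myl2 (-0.50, 0.00678) as lower. In that fit 10.8% of all tested genes were called, so the share of members called has to be read against a much larger background. No member was called without control 2 or control 3, where edgeR called 0.392% and 0.784% of all genes.

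Members were also split by transcript length at 2 kb, a split chosen after seeing the data. The 19 members with transcripts above 2 kb gave median log2 levels, relative to the controls, of 0.25, 0.15 and 0.15 for knockouts 1, 2 and 3, while the 12 up to 2 kb had -0.18, 0.28 and -0.16. All tested genes with a known length showed the same signs on a smaller scale in knockouts 1 and 3, with medians of -0.117 and -0.106 for the 3672 genes up to 2 kb and 0.023 and 0.0095 for the 10506 longer ones. Controls differed by length too and in opposite directions, with medians of 0.067 in control 2 and -0.069 in control 3 for the shorter genes. Across all 14178 tested genes with a length, Spearman's rho of level with length was -0.304 in control 2 and 0.334 in control 3, both further from 0 than the 0.258, -0.0679 and 0.193 of knockouts 1, 2 and 3. Ttn, the giant spring protein of the sarcomere and no member, had 63.3, 50.5 and 90.4 CPM in controls and 142, 40.04 and 118 CPM in knockouts. Its 2 highest libraries are those with the largest share of alignments outside genes. Among the 13 sarcomere members the correlation of log2 fold change with the log of transcript length was 0.48 (Pearson, with Spearman 0.626). Over all 31 members it was 0.026 (Spearman 0.252), and over all 14178 tested genes with a length 0.047 (Spearman 0.135). These are descriptions across genes that share libraries. The part of length, or of reads outside genes, in the folds of Myh7, Ryr2, Mybpc3 and Myl2 was not tested beyond the fit with that share as a covariate. In that fit edgeR called 7 members, all as higher, where it called 4.96% of all genes: Nppa (1.87), Nppb (1.67), Bmp10 (1.14), Myl3 (0.65), Gata6 (0.65), Gata4 (0.63) and Tnnt2 (0.35). That fit called none of Myh7, Ryr2, Mybpc3 and Myl2. Because only knockout 2 has a share like the controls, this fit rests mostly on that embryo. Over all 19 alternative fits the log2 fold change of Myh7 was 0.34 to 0.57 and that of Ryr2 0.32 to 0.60. Mybpc3 ran from 0.17 to 0.32 and Myl2 from -0.50 to -0.018.

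Some other fits gave the same single call, Nppa, against nearly the same or a smaller background. These were edgeR with RLE (1.51% of all genes called) or upper quartile scaling (1.43%), with library totals (1.17%), without robust priors (1.43%), with a minimum count of 30 (1.02%) and without the ribosomal RNA gene Rn45s (1.51%), and limma-voom (1.15%). It was also the only call without control 1 (0.458%), knockout 1 (1.53%) or knockout 3 (0.663%), and with libraries scaled to the sarcomere members (2.4%). That last scaling gave 53 higher and 309 lower genes in all, beside 83 and 144 with TMM. Without a filter on low counts Myh7 was added (1.71%), and with knockouts 2 and 3 summed to 1 library Myh7 and Ryr2 were added (2.93%). With the replicate number as a block edgeR called Myh7, Ryr2 and Gata6 but not Nppa (3.91%).

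**Figure D4:**
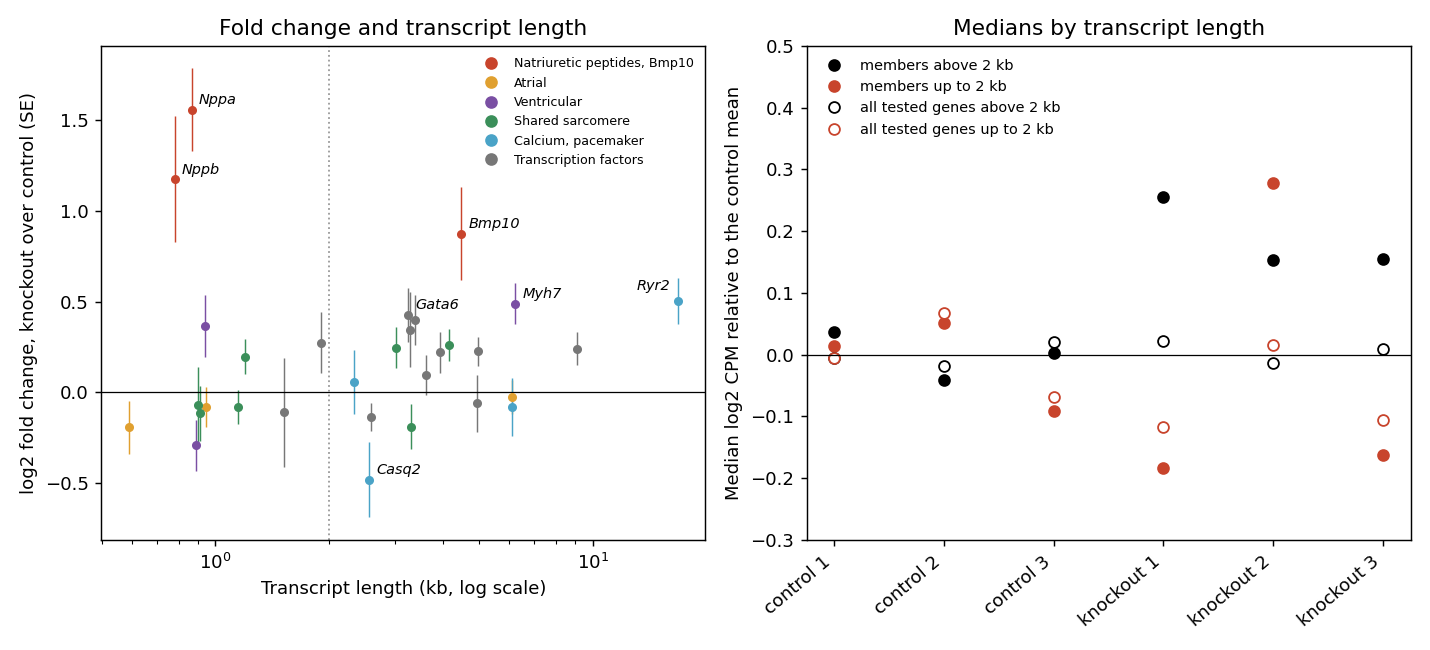
Left, log2 fold change of each member with its SE against transcript length in kb on a log axis, with a dotted line at 2 kb. Right, the median log2 level against the control mean in each embryo, for members (filled) and all tested genes (open) above (black) and up to (red) 2 kb. In knockouts 1 and 3 the short members lie below 0 and the long ones above it, and in knockout 2 both lie above 0.

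Other genes of heart muscle were fixed as lists beside the members, and none was called by edgeR. Of 22 further genes, of the sarcomere or otherwise associated with muscle, 16 had folds above 0, with a median of 0.10. Ankrd1, a stretch-responsive gene, had 16.3, 17.8 and 12.7 CPM in controls and 22.3, 36.4 and 21.4 CPM in knockouts, at 0.78 ± 0.21 SE (edgeR adjusted p = 0.118). Xirp1 was at 0.52, Ldb3 at 0.45 and Tnnc1, cardiac troponin C, at -0.33. Of 16 further channel and membrane genes 12 had folds above 0 (median 0.16), among them Gjc1, a connexin gene, at 0.20, Cacna1c, the main cardiac calcium channel, at 0.50, and Popdc2 at 0.30, while the sodium-calcium exchanger gene Slc8a1 was at -0.14. Of 15 further cardiac factors 10 were above 0 (median 0.12), with Irx3 at 0.36, Isl1, a factor of cardiac progenitors that motor neurons also make, at -0.27, and Irx4, of the ventricle, at -0.51.

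Markers of other cells moved in varied ways. Skeletal muscle, which shares several members with the heart, had 13 of 17 folds below 0, a median of -0.50 and no calls by edgeR, with Mylpf at -0.60, Cav3 at -1.29, Tnnt3 at -0.89 and Myog at -0.50. Its summed level was 185 to 197 CPM in controls and 150 to 186 CPM in knockouts. Smooth muscle genes had no calls among 7, with a median of 0.09. Endothelial genes had 7 of 8 folds above 0, with Kdr called as higher (0.44, edgeR adjusted p = 0.0302). All 7 tested macrophage genes were called as lower, with summed levels of 50.5 to 60.9 CPM in controls and 1.65 to 2.40 CPM in knockouts. Genes of the gut and liver endoderm, where Gata4 and Gata6 are also made, had 4 folds above and 4 below 0, with Ttr called as lower (-1.69, edgeR adjusted p = 0.00886) and summed levels of 177 to 283 CPM in controls and 102 to 202 CPM in knockouts. Neuronal genes had all 6 folds below 0 (median -0.36), and Nhlh1, a factor of newborn neurons, was called as lower (-0.60, edgeR adjusted p = 0.0333). The part of these cells in the levels of the members was not tested.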

How the data were processed

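RNA of 6 whole embryos, 3 per group, was made into stranded polyadenylated libraries, per the labels' protocols. The authors deposited whole-number counts per gene symbol, with no normalization. Reads were handled with HTSeq, Bowtie2, TopHat2 and Trimmomatic on mm9, per the submitters' processing notes. Not given in the sources used here are versions, the gene annotation and the strand setting. Rows with no gene name were left out of library sizes: they held 9.79% to 18.3% of alignments (outside genes), 18.2% to 22.6% (not unique) and 0.531% to 0.724% (ambiguous).

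The test was edgeR's quasi-likelihood F test (version 4.0.16, R 4.3.3) with robust priors, TMM scaling and group as the only term. filterByExpr (count 10, total 15) kept 15075 of 23366 genes. P-values were adjusted over all of them. Standard errors were taken as the size of the log2 fold change divided by the root of F. Per-embryo log2 levels use a pseudocount of 0.5 CPM. Repeat counts were not used. Lengths are those of the principal GENCODE M21 transcript (GRCm38), matched by symbol for 14178 tested genes.

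Exons of Myl2, Myl3, Pln and Tnni3 overlap those of Ccdc63, Pth1r, Cep85l and Dnaaf3 over 3.08% to 5.11% of their length, so a few of their reads may be shared or left out. Members and lists were chosen with earlier results of these data known. Named were all members, H3f3a, H3f3b and Trp53, and of each companion list the called genes and otherwise up to 4 with the smallest p; other genes named (Npr3, Ttn and the neighbours of Nppa) were chosen after their values were seen. Some genes that fall under this rule are not reported here. Trp53 gave 2.75 ± 0.49 CPM in controls and 4.52 ± 1.27 CPM in knockouts (SD, n = 3). Alternatives were other scalings, DESeq2 1.42.0, voom of limma 3.58.1, no robust priors, other filters, each library left out, a block on the replicate number, Rn45s left out, the share of alignments outside genes as a covariate, and knockouts 2 and 3, whose files share a code, summed. Scaling to the sarcomere members and the split at 2 kb were added after seeing the data.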

Additional observations from a re-analysis of the deposited data

How the results depend on the processing

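Main counts were 1 member called, as higher, and 11 genes of the companion lists. More members were called, all as higher, by DESeq2 (4), without a filter on low counts (2), with knockouts 2 and 3 summed (3) and with the share of alignments outside genes as a covariate (7). The companion lists held 19 called genes by DESeq2 and 42 with that covariate, where Epb4.2, an erythroid membrane gene, turned from 0.14 to -0.52 (log2). Leaving out 1 library at a time gave 0 to 5 members called, 0 to 4 as higher and 0 to 1 as lower, and 8 to 33 companion genes. The median member fold was 0.14 to 0.22 (log2) over those fits, and 0.10 when scaled to the sarcomere members. The median of the shared sarcomere genes, -0.07, had the opposite sign without control 2 (0.13), without knockout 1 (0.07) and with the covariate (0.17), and that of the calcium and pacemaker genes, -0.01, with library totals (0.04), without control 3 (0.08), knockout 1 (0.04) or knockout 3 (0.04) and with the covariate (0.09). The causes were not tested. With the replicate number as a block, edgeR called 3 members, as higher, and 19 companion genes, where 3.91% of all genes were called. These were Myh7, Ryr2 and Gata6, and not Nppa (1.54, adjusted p = 0.0947). Same-numbered embryos deviated together with r = -0.0997, 0.227 and 0.308, and not every embryo correlated best with its own number, so numbers were not taken as pairs. Other scalings by edgeR, limma-voom, a fit without robust priors, a minimum count of 30 and a fit without Rn45s each called 1 member, Nppa. Nppa was called in 16 of 19 alternatives, with log2 fold changes of 1.34 to 1.87. Over all genes 83 were higher and 144 lower, beside 456 and 323 by DESeq2, 333 and 256 with the block, 437 and 311 with the covariate, 270 and 179 with knockouts summed, 144 and 184 without a filter, 55 and 83 at a minimum count of 30, 52 and 121 by limma-voom, and 7 to 1159 and 53 to 504 with a library left out.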

Other observations

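Other parts of the developing heart had no called gene. Of 7 tested epicardial genes 5 had log2 fold changes above 0, with a median of 0.15. Wt1, a factor of the epicardium and the urogenital ridge, was at 0.37 ± 0.11 (SE, edgeR adjusted p = 0.131), Upk3b, a gene of the mesothelium, at 0.48 ± 0.16 (0.161) and Lrp2 at 0.37. Of 10 genes of the second heart field and outflow tract 6 were above 0, with a median of 0.09, and Nr2f2, a factor of atria and veins, was at 0.19. The 12 genes of the endocardium and cushions had a median of 0.04 and none had an unadjusted p under 0.05, with the receptor gene Erbb4 at 0.35, Tgfb2 at 0.14 and Vcan, the main proteoglycan of the cushions, at -0.14. Erythroid genes, among the most abundant of the embryo, had no calls among 7 tested, with a median of -0.03, and their summed level was lowest in knockout 2, at 5677 CPM against 8348 and 9266 CPM in the other knockouts and 7747 to 9890 CPM in controls.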
